A study of Arabidopsis thaliana with 12 samples.

Results

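Nuclear genes whose transcript level lay on opposite sides of wild type in nia1nia2 and in noa1-2 were examined in seedlings of Arabidopsis thaliana. A gene was a member if the mean log2 intensity of its probe set reached 6 in any genotype, and if the nia1nia2 and noa1-2 means differed from the Col-0 mean by at least 0.5 on the log2 scale, in opposite directions. The rule found 129 genes, each with 1 probe set, among 7005 probe sets listed with 1 nuclear gene and past the floor of 6, out of 22810 on the array. In 60 of them the transcript was higher in nia1nia2 and lower in noa1-2 (called nia1nia2-high genes here), and in 69 it was lower in nia1nia2 and higher in noa1-2 (called noa1-2-high genes). Both differences chose the genes, so they are given as values with no test.

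The seedlings were nia1nia2noa1-2, nia1nia2, noa1-2 and the wild type Col-0, and the study describes the 3 mutants as deficient in nitric oxide (NO). The nia1nia2 plants are mutated in NIA1 and NIA2, which encode the nitrate reductases, noa1-2 plants in NITRIC OXIDE ASSOCIATED1 (NOA1), and nia1nia2noa1-2 plants in all of these genes. All groups grew for 15 days on MS medium with 1% sucrose under a photoperiod of 16 h light and 8 h dark and were collected whole, 5 h after dawn and after the floral transition. RNA of 3 biological replicates per genotype was hybridized to 12 Affymetrix ATH1 arrays, and the replicates carry the numbers 2 to 4 in nia1nia2 and 1 to 3 in the other genotypes. RNA came from whole seedlings, so fewer cells of a type and less RNA per cell cannot be told apart in any value below.

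Nitrate reductase reduces nitrate to nitrite, the first step of nitrate assimilation, and nitrite is a source of NO in plants. NOA1 is a GTPase of the plastid that is needed for normal plastid ribosomes, and loss of it gives pale leaves. Both mutants are used as plants with little NO, and the genes below are those in which their transcript levels lay on opposite sides of wild type.

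The deposited values were intensities on a linear scale, used as log2, with array medians between 76.1 and 86.8. Within a genotype the median SD of log2 values over 7083 probe sets tested was 0.12 in nia1nia2noa1-2, 0.26 in nia1nia2, 0.11 in noa1-2 and 0.12 in Col-0, so nia1nia2 arrays spread the most. NIA1, NIA2 and NOA1 are not named in the probe-set table used here, so the genotype labels were not checked by the targeted genes. Of 7 leaf mesophyll markers only RCA, the activase of Rubisco, was named, and its log2 intensity was 13.66 to 13.71 in nia1nia2noa1-2, 13.29 to 13.55 in nia1nia2, 13.81 to 13.84 in noa1-2 and 13.78 to 13.96 in Col-0. Of 9 root, 7 flower and 7 seed storage markers, 0 were named. Of 5 markers of leaf senescence 2 were named, SAG29 and SAG101, and the log2 of their summed intensity was 9.40 to 9.98 in nia1nia2noa1-2, 8.76 to 10.51 in nia1nia2, 7.50 to 8.0 in noa1-2 and 8.06 to 8.32 in Col-0. Of the 2 only SAG29, itself a nia1nia2-high gene, had a mean of at least 6 over the arrays, so the sum mostly gives the level of SAG29. The part of leaf age or tissue makeup in the results was not tested.

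Of the 7005 nuclear probe sets, 2920 differed from Col-0 in opposite directions in nia1nia2 and noa1-2 and 4085 in the same direction. With the size minimum of 0.5 in both mutants, 129 were opposite and 228 ran the same way, of which 78 were higher and 150 lower in both. Among the nia1nia2-high genes the median difference from Col-0 was 1.21 in nia1nia2 and -0.68 in noa1-2. Among the noa1-2-high genes it was -0.76 in nia1nia2 and 0.64 in noa1-2. The change in nia1nia2 was the larger one in 51 of 60 nia1nia2-high genes and in 47 of 69 noa1-2-high genes. In 44 nia1nia2-high genes all nia1nia2 arrays lay above and all noa1-2 arrays below every Col-0 array, a pattern found in 2.78% of all probe sets tested. The reverse pattern held in 53 noa1-2-high genes and in 4.31% of all probe sets. The same contrasts chose the genes, so nothing is read from these shares.

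**Figure D1:**
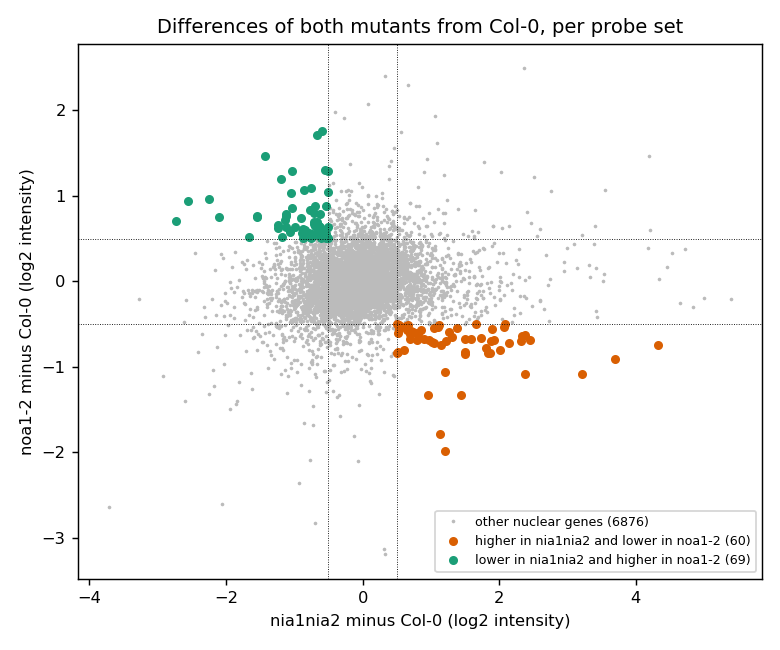
Difference of nia1nia2 from Col-0 (horizontal) and of noa1-2 from Col-0 (vertical) in log2 intensity, 1 point per nuclear probe set tested, with dotted lines at 0.5 and -0.5. The 60 nia1nia2-high genes lie at lower right and reach further along the nia1nia2 axis (up to 4.33), and the 69 noa1-2-high genes lie at upper left.

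The genes nearest the size minimum show how narrow it is. SGP1 (1.67 in nia1nia2 and -0.50 in noa1-2) and AT2G16790 (0.50 and -0.50) lay just inside among the nia1nia2-high genes, and AT4G33540 (1.50 and -0.49) and AT4G33550 (0.97 and -0.49) just outside. Among the noa1-2-high genes AT5G14120 (-0.76 in nia1nia2 and 0.50 in noa1-2) and AT3G07350 (-0.50 and 0.64) lay just inside, and PDF1B (-0.70 and 0.497) and AT2G31150 (-0.81 and 0.497) just outside. DAL1 met the size minimum (-0.55 in nia1nia2 and 0.83 in noa1-2) but the gene table gave it no chromosome, and it was not counted.

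The nia1nia2noa1-2 mutant was then set against Col-0. Its arrays entered the rule through the floor of 6 alone, on which 0 members depended, but the comparison shares the Col-0 arrays with the rule and is not independent of it. The nia1nia2-high genes were mostly raised in nia1nia2noa1-2 as well. Their median difference from Col-0 was 0.79, against -0.03 over all probe sets tested, and 58 of 60 had a mean above the Col-0 mean. In limma, with Benjamini-Hochberg adjustment over all 7083 probe sets, 35 of the 60 (58.3%) were called higher, where 10.6% of all probe sets were called higher, and 0 were called lower, where 11.3% of all were. The 35 had differences of 0.46 to 3.85, and 22 of them were raised at least 2-fold, a log2 difference of 1. The other 25 had differences of -0.19 to 0.85, with 7 under 0.2 in size. All nia1nia2noa1-2 arrays lay above all Col-0 arrays in 42 of the 60, against 22.9% of all probe sets. The count of 35 depended on single arrays. Without Col-0 replicate 1 the rule found 63 nia1nia2-high genes, 47 of them among the 60, and 20 were called higher (31.7%, against 7.03% of all probe sets). Without nia1nia2noa1-2 replicate 1 there were 23 calls among the 60 (38.3%, against 6.97%). The count of 0 called lower became 1 without Col-0 replicate 3 or nia1nia2 replicate 4.

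The noa1-2-high genes lay close to wild type in nia1nia2noa1-2. Their median difference was -0.10, and 26 had a mean above and 43 a mean below the Col-0 mean. Only 1 of the 69 (1.45%) was called higher and 4 (5.80%) were called lower, both shares below those of all probe sets, and 64 passed in neither direction. Of these 64, 38 differed from Col-0 by less than 0.2. All nia1nia2noa1-2 arrays lay below all Col-0 arrays in 16 genes and above them in 4, against 26.2% and 22.9% of all probe sets. The spread of nia1nia2 arrays enters the fit over all 12 arrays, and with limma on the 6 arrays of nia1nia2noa1-2 and Col-0 alone 13 were called lower (18.8%, against 18.6% of all probe sets) and 3 higher (4.35%, against 17.4%). In that fit the share called lower was no longer below that of all. The count of 4 called lower became 8 of 88 members (9.09%) without nia1nia2 replicate 3, where 14.2% of all probe sets were called lower. It became 8 of 72 (11.1%) without nia1nia2 replicate 4, against 17.0% of all, and 8 of 80 (10.0%) without noa1-2 replicate 3, against 10.3%. Without nia1nia2noa1-2 replicate 1 it was 2 (2.90%, against 7.28%), and the count of 1 called higher became 2 without nia1nia2 replicate 3.

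**Figure D2:**
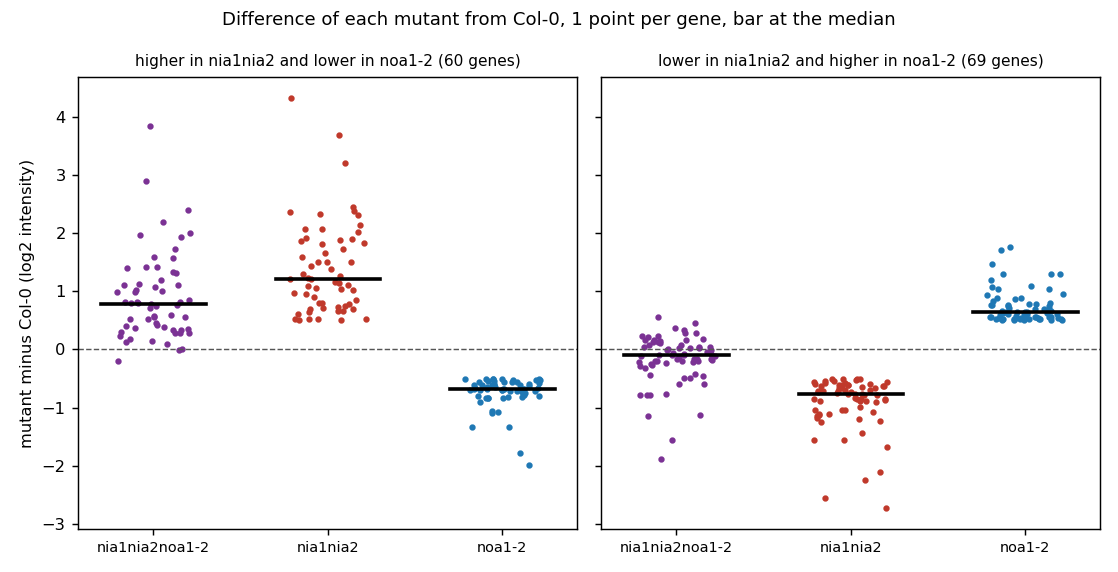
Difference of nia1nia2noa1-2, nia1nia2 and noa1-2 from Col-0 in log2 intensity, 1 point per gene with a bar at the median, for the 60 nia1nia2-high genes (left) and the 69 noa1-2-high genes (right). The nia1nia2noa1-2 points of the first group have a median of 0.79 and nearly all lie above 0, and those of the second have a median of -0.10 and lie on both sides of 0.

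Among the nia1nia2-high genes with a known function, 5 act in anthocyanin and flavonoid synthesis, and all 5 were called higher in nia1nia2noa1-2, where 58.3% of the 60 genes and 10.6% of all probe sets were. DFR, UF3GT and AT4G14090 are on the flavonoid list, and AT5MAT and CHIL were added to them after their values were seen. Anthocyanins are the red and purple pigments that Arabidopsis leaves make under stress and when sugar is plentiful. DFR (AT5G42800), dihydroflavonol 4-reductase, makes the colourless precursors of anthocyanins. Its log2 intensity was 10.40, 9.85 and 10.64 in nia1nia2noa1-2, 11.49, 11.03 and 10.82 in nia1nia2, 6.57, 7.24 and 6.63 in noa1-2 and 6.86, 8.45 and 8.39 in Col-0. The arrays with the nia1 and nia2 mutations were all far above the rest, while Col-0 replicate 1 lay among the noa1-2 arrays. DFR was higher in nia1nia2noa1-2 than in Col-0 by 2.40 ± 0.36 (SE, n = 3 each; 5.27-fold; limma adjusted p = 0.000574).

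UF3GT (AT5G54060), a glycosyltransferase that adds xylose to anthocyanins, read 9.58, 9.14 and 9.76 in nia1nia2noa1-2, 9.79, 9.13 and 9.70 in nia1nia2, 6.79, 6.96 and 6.41 in noa1-2 and 6.66, 7.99 and 7.93 in Col-0. It was higher in nia1nia2noa1-2 than in Col-0 by 1.97 ± 0.31 (SE; adjusted p = 0.00075), and the nia1nia2noa1-2 mean lay within 0.05 of the nia1nia2 mean. AT4G14090, a UDP-glycosyltransferase family gene on the flavonoid list, read 9.04, 8.52 and 9.39 in nia1nia2noa1-2, 9.25, 8.65 and 8.82 in nia1nia2, 6.41, 6.47 and 6.02 in noa1-2 and 6.18, 7.26 and 7.51 in Col-0. Here Col-0 replicate 1 again fell inside the range of noa1-2, and the difference of nia1nia2noa1-2 from Col-0 was 2.00 ± 0.31 (SE; adjusted p = 0.000604). AT5MAT, which adds malonate to anthocyanins, was higher in nia1nia2noa1-2 by 1.11 ± 0.28 (adjusted p = 0.0125), although it was under 6 in noa1-2 and Col-0. CHIL, a chalcone isomerase-like protein that raises flavonoid output, was higher by 0.81 ± 0.23 (adjusted p = 0.0222).

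Across the 5 genes the differences from Col-0 were 0.81 to 2.40 in nia1nia2noa1-2, 1.02 to 3.21 in nia1nia2 and -1.09 to -0.53 in noa1-2. Col-0 was variable for DFR, UF3GT, AT4G14090 and AT5MAT, with replicate 1 about the level of noa1-2. What set that replicate apart was not tested. By the methods' t-test with Benjamini-Hochberg adjustment DFR, UF3GT and AT4G14090 were not called. Without Col-0 replicate 1 limma still called all 3. The flavonoid list held 5 genes tested, these 3 and 2 others. Of the 2 others UGT78D2, a flavonoid 3-O-glucosyltransferase, was higher in nia1nia2noa1-2 by 1.29 ± 0.13 (adjusted p = 2.08e-05) and was 0.26 lower in noa1-2, under the size minimum. UGT78D1 differed by -0.25 ± 0.14 (adjusted p = 0.231).

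**Figure D3:**
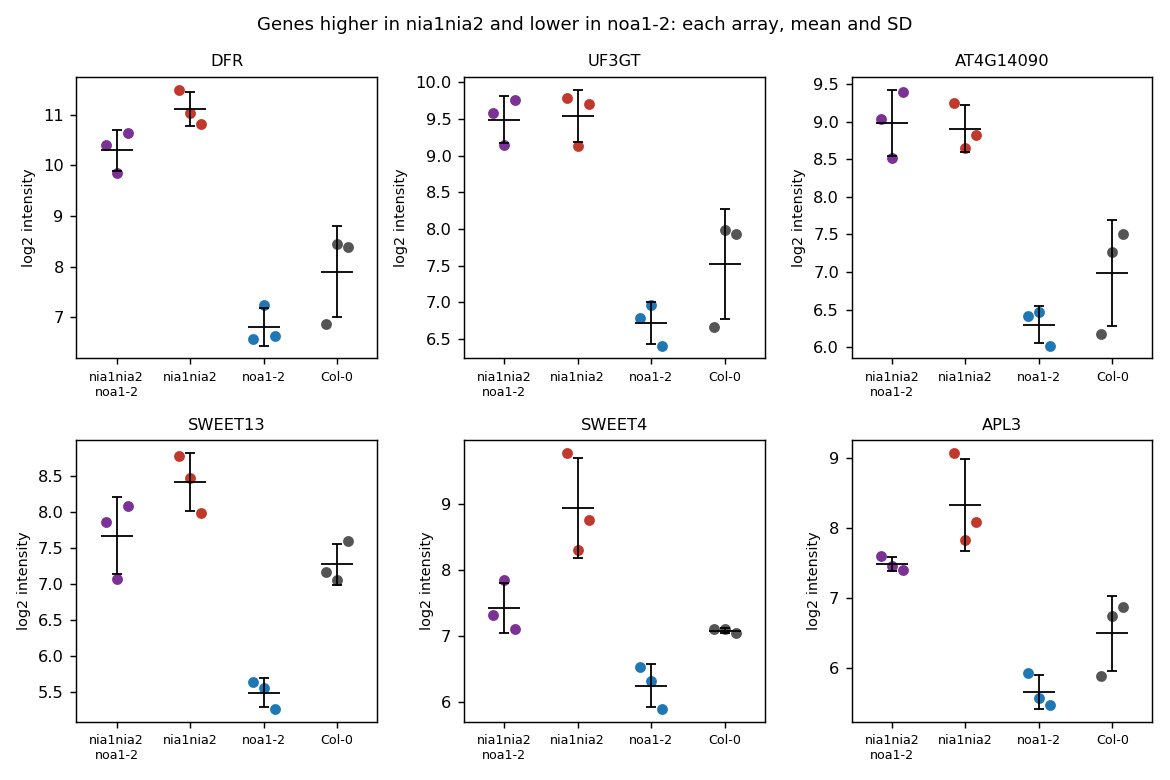
Log2 intensity of 6 nia1nia2-high genes on each array (points), with the mean and SD of 3 arrays, for nia1nia2noa1-2, nia1nia2, noa1-2 and Col-0. DFR, UF3GT and AT4G14090 stay high in nia1nia2noa1-2, SWEET13 and SWEET4 lie near Col-0 there, and APL3 lies between nia1nia2 and Col-0.

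Sugar transport and starch genes formed a second set of nia1nia2-high genes, with unequal levels in nia1nia2noa1-2. SWEET proteins carry sugars across membranes, and APL genes encode large subunits of ADP-glucose pyrophosphorylase, the enzyme that supplies starch synthesis. SWEET13 (AT5G50800), a sucrose exporter, read 7.86, 7.07 and 8.08 in nia1nia2noa1-2, 8.78, 8.47 and 7.99 in nia1nia2, 5.65, 5.56 and 5.27 in noa1-2 and 7.17, 7.06 and 7.59 in Col-0. The 3 noa1-2 arrays lay more than 1 below every other array, and nia1nia2noa1-2 overlapped Col-0 (difference 0.40 ± 0.25, adjusted p = 0.292). SWEET4 (AT3G28007) read 7.31, 7.84 and 7.10 in nia1nia2noa1-2, 9.77, 8.30 and 8.75 in nia1nia2, 6.52, 6.32 and 5.89 in noa1-2 and 7.10, 7.10 and 7.04 in Col-0. It did not pass in nia1nia2noa1-2 either (0.34 ± 0.30, adjusted p = 0.458).

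SAG29 (AT5G13170), also known as SWEET15 and induced in ageing leaves, read 9.63, 9.34 and 9.94 in nia1nia2noa1-2, 10.48, 9.25 and 8.55 in nia1nia2, 7.84, 7.41 and 7.25 in noa1-2 and 8.01, 7.90 and 8.21 in Col-0. It was raised in nia1nia2noa1-2 by 1.60 ± 0.35 (adjusted p = 0.00672), and its nia1nia2noa1-2 mean was 0.21 above its nia1nia2 mean. APL3 (AT4G39210) read 7.60, 7.46 and 7.40 in nia1nia2noa1-2, 9.07, 7.83 and 8.09 in nia1nia2, 5.93, 5.58 and 5.47 in noa1-2 and 5.89, 6.74 and 6.87 in Col-0. Its difference of 0.99 ± 0.29 in nia1nia2noa1-2 (adjusted p = 0.0293) lost its call with no floor, with the methods' t-test after adjustment, and without Col-0 replicate 1 or any 1 of the nia1nia2noa1-2 arrays. APL4, which was under 6 in noa1-2 and Col-0, was higher by 1.32 ± 0.31 (adjusted p = 0.00882).

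The sugar and starch list had 10 genes tested, 3 of them members (APL3, SAG29 and SWEET4). Of the other 7, 4 were called higher and 1 lower in nia1nia2noa1-2, against 10.6% and 11.3% of all probe sets. Their median difference from Col-0 in noa1-2 was 0.11. QQS, which affects starch content, was higher in nia1nia2noa1-2 by 2.11 ± 0.25 (adjusted p = 9.22e-05). It was 1.44 lower than Col-0 in nia1nia2 and at the Col-0 level in noa1-2. EXO, a cell wall protein that responds to carbon status, was higher in nia1nia2noa1-2 by 1.73 ± 0.27 (adjusted p = 0.000692). SWEET11, an exporter of sucrose, was higher there by 0.74 ± 0.14 (adjusted p = 0.00247), and SWEET1, a glucose transporter, by 0.51 ± 0.15 (adjusted p = 0.0299). EXO, SWEET11 and SWEET1 were not below Col-0 in noa1-2 (differences of 0.41, 0.56 and 0.01), so they lacked the opposite change of the members. SWEET16, a transporter of the vacuole membrane, was lower (-0.74 ± 0.21, adjusted p = 0.0237), with -1.07 in nia1nia2 and 0.41 in noa1-2, so it was under the size minimum in noa1-2.

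The 2 largest differences of nia1nia2noa1-2 from Col-0 among the nia1nia2-high genes belonged to genes with little annotation. AT1G73120, which the study lists as an unknown protein that responds to oxidative stress, read 9.95, 10.09 and 9.72 in nia1nia2noa1-2, 10.07, 9.90 and 11.23 in nia1nia2, 5.32, 5.10 and 5.56 in noa1-2 and 6.47, 5.99 and 5.74 in Col-0. It was raised 14.5-fold in nia1nia2noa1-2 (3.85 ± 0.29, adjusted p = 2.61e-06). AT2G41380, a methyltransferase family gene, read 9.93, 10.12 and 9.21 in nia1nia2noa1-2, 10.44, 9.78 and 11.42 in nia1nia2, 5.89, 5.81 and 6.14 in noa1-2 and 6.83, 6.89 and 6.84 in Col-0, and was raised 7.46-fold (2.90 ± 0.32, adjusted p = 6.94e-05). In both genes the arrays of nia1nia2noa1-2 and nia1nia2 overlapped each other and stood well clear of the other 6.

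AT3G15650, an alpha/beta-hydrolase family gene, had values of 8.46, 8.41 and 7.79 in nia1nia2noa1-2, 8.48, 8.08 and 8.54 in nia1nia2, 5.35, 5.51 and 5.30 in noa1-2 and 5.85, 5.88 and 6.36 in Col-0, and was raised by 2.19 ± 0.20 in nia1nia2noa1-2 (adjusted p = 9.96e-06). AT1G80130 was raised there by 1.13 ± 0.26 (adjusted p = 0.00789), AT4G01870 by 1.41 ± 0.36 (adjusted p = 0.0143) and AT4G33040 by 0.75 ± 0.18 (adjusted p = 0.011). The calls of AT1G80130 and AT4G01870 were lost with the methods' t-test after adjustment. The call of AT4G01870 was also lost without Col-0 replicate 3 (difference 1.02) or nia1nia2noa1-2 replicate 2 (1.32), and that of AT4G33040 without Col-0 replicate 1 (0.67). SGP1, at 0.79 ± 0.24 (adjusted p = 0.0303), lost its call without any 1 Col-0 array, without nia1nia2noa1-2 replicate 1 or 2, and with no floor.

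The other annotated nia1nia2-high genes covered several branches of metabolism. A further 3 UDP-glycosyltransferases were called higher in nia1nia2noa1-2, namely UGT76B1, which conjugates signals of plant defence, by 0.99 ± 0.28, IAGLU, which conjugates auxin, by 1.19 ± 0.22, and GT72B1, which conjugates phenolic compounds, by 0.77 ± 0.13. Of 5 other enzymes 3 were called higher: BETA-VPE, a vacuolar processing protease, by 1.58 ± 0.19, MGL, methionine gamma-lyase, by 1.08 ± 0.18, and PGM, annotated as a phosphoglycerate mutase, by 1.93 ± 0.31. PPDK, pyruvate orthophosphate dikinase, differed by 0.29 ± 0.13 (adjusted p = 0.136) and PMEAMT, a methyltransferase of phosphocholine synthesis, by 0.29 ± 0.13 (adjusted p = 0.133). Among all 60 nia1nia2-high genes 58.3% were called higher, and among all probe sets 10.6%. Both enzyme groups were formed after the values were seen, so nothing is read from their counts. NPF3.1 (AT1G68570), of the nitrate and peptide transporter family, was higher by 1.33 ± 0.26 (adjusted p = 0.00289), and MT1C, a metallothionein, which binds metal ions, by 0.46 ± 0.13 (adjusted p = 0.022).

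The nia1nia2-high genes that fell most below Col-0 in noa1-2 were not those that rose most above it in nia1nia2noa1-2. AT3G22240 read 12.18, 12.46 and 11.49 in nia1nia2noa1-2, 12.74, 12.78 and 13.20 in nia1nia2, 9.69, 9.48 and 9.96 in noa1-2 and 11.30, 11.79 and 12 in Col-0, which made the difference of -1.99 in noa1-2 the largest of the group. It differed by 0.35 ± 0.24 in nia1nia2noa1-2 (adjusted p = 0.336). AT1G57590 read 8.86, 8.86 and 8.84 in nia1nia2noa1-2, 10.14, 8.88 and 10.18 in nia1nia2, 7.06, 6.78 and 7.06 in noa1-2 and 8.34, 8.34 and 8.20 in Col-0. Its 3 nia1nia2noa1-2 arrays agreed within 0.02 and lay above all Col-0 arrays, yet the difference of 0.56 ± 0.26 did not pass in the fit over 12 arrays (adjusted p = 0.14), while it passed on the 6 arrays of the 2 genotypes (adjusted p = 0.00107). Of its nia1nia2 arrays replicate 3 stood apart from the others, at the level of nia1nia2noa1-2.

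AT3G13610 (F6'H1), feruloyl-CoA 6'-hydroxylase of coumarin synthesis, which roots use in iron uptake, read 8.30, 8.55 and 8.18 in nia1nia2noa1-2, 8.96, 8.77 and 9.38 in nia1nia2, 6.73, 6.49 and 7.07 in noa1-2 and 7.29, 8.11 and 8.07 in Col-0. Its difference of 0.52 ± 0.23 in nia1nia2noa1-2 did not pass (adjusted p = 0.121). Of the 4 other iron and coumarin genes tested 0 were called higher and 1 lower in nia1nia2noa1-2, against 10.6% and 11.3% of all probe sets. The 1 called lower was BHLH101, a regulator of the iron deficiency response, at -2.60 ± 0.39 (adjusted p = 0.00052), with -2.05 in nia1nia2 and -2.60 in noa1-2. The iron regulator PYE differed by -0.50 ± 0.22 in nia1nia2noa1-2 (adjusted p = 0.118). In noa1-2, limma called 3 of these 4 genes lower and 0 higher, against 287 and 353 of 7083 probe sets. In nia1nia2 it called 1 lower and 0 higher, against 1893 and 1158. The low noa1-2 level was thus shared by most of these genes, and the rise in nia1nia2 was not.

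Among the 40 nia1nia2-high genes with the largest opposite changes, 14 lay nearest to Col-0 in nia1nia2noa1-2, and the 4 with the smallest differences there are given here. AT2G40435, with a difference of -0.003 ± 0.21 there (adjusted p = 0.993), read 6.31, 6.51 and 6.13 in nia1nia2noa1-2, 7.22, 6.75 and 7.86 in nia1nia2, 5.10, 4.97 and 4.91 in noa1-2 and 6.22, 6.31 and 6.43 in Col-0. EULS3, a lectin, differed by 0.15 ± 0.14 in nia1nia2noa1-2 (adjusted p = 0.475), AT3G20300 by -0.19 ± 0.22 (adjusted p = 0.561) and AT5G11650 by 0.24 ± 0.17 (adjusted p = 0.368). AT2G40435 and AT3G20300 were the 2 genes of the group with a mean below that of Col-0.

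Of the 69 noa1-2-high genes 10 carry a symbol, and 3 of these encode defence peptides. PDF1.2 (AT5G44420) and PDF1.2b (AT2G26020) encode plant defensins that are standard markers of jasmonate and ethylene signalling. PDF1.2b read 5.21, 5.18 and 5.96 in nia1nia2noa1-2, 5.39, 6.67 and 5.40 in nia1nia2, 8.31, 8.03 and 8.30 in noa1-2 and 6.89, 6.99 and 7.16 in Col-0. It was lower in nia1nia2noa1-2 than in Col-0 (-1.56 ± 0.29, adjusted p = 0.0024), and its mean lay beyond that of nia1nia2. PDF1.2 read 4.71, 4.70 and 4.94 in nia1nia2noa1-2, 4.60, 5.51 and 4.94 in nia1nia2, 7.15, 6.76 and 6.71 in noa1-2 and 5.63, 5.35 and 5.74 in Col-0, with a difference of -0.79 ± 0.20 in nia1nia2noa1-2 (adjusted p = 0.0144).

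For both defensins the noa1-2 arrays stood above all others, and all nia1nia2noa1-2 arrays lay below Col-0. PDF1.2 was under 6 in all genotypes but noa1-2, so its fall is one between dim signals, and its call was lost without Col-0 replicate 1 or 3 or without nia1nia2noa1-2 replicate 1 or 2 (differences of -0.76, -0.71, -0.75 and -0.75). PDF1.2b was under 6 in nia1nia2noa1-2 and nia1nia2 (means of 5.45 and 5.82). Its fall thus ends below the floor too, and the order of those means is uncertain. The defensins are near-identical paralogs and the PDF1.2b probe set is of the x_at type, whose probes can match other transcripts, so the signal of each gene is uncertain. They were the 2 genes tested of the jasmonate list. THI2.2, a thionin, another antimicrobial peptide, read 9.62, 9.99 and 10.20 in nia1nia2noa1-2, 9.34, 9.26 and 8.81 in nia1nia2, 10.69, 10.69 and 10.95 in noa1-2 and 10.74, 9.61 and 9.75 in Col-0. It differed by -0.10 ± 0.26 in nia1nia2noa1-2 (adjusted p = 0.822), and Col-0 replicate 1 was at the noa1-2 level.

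**Figure D4:**
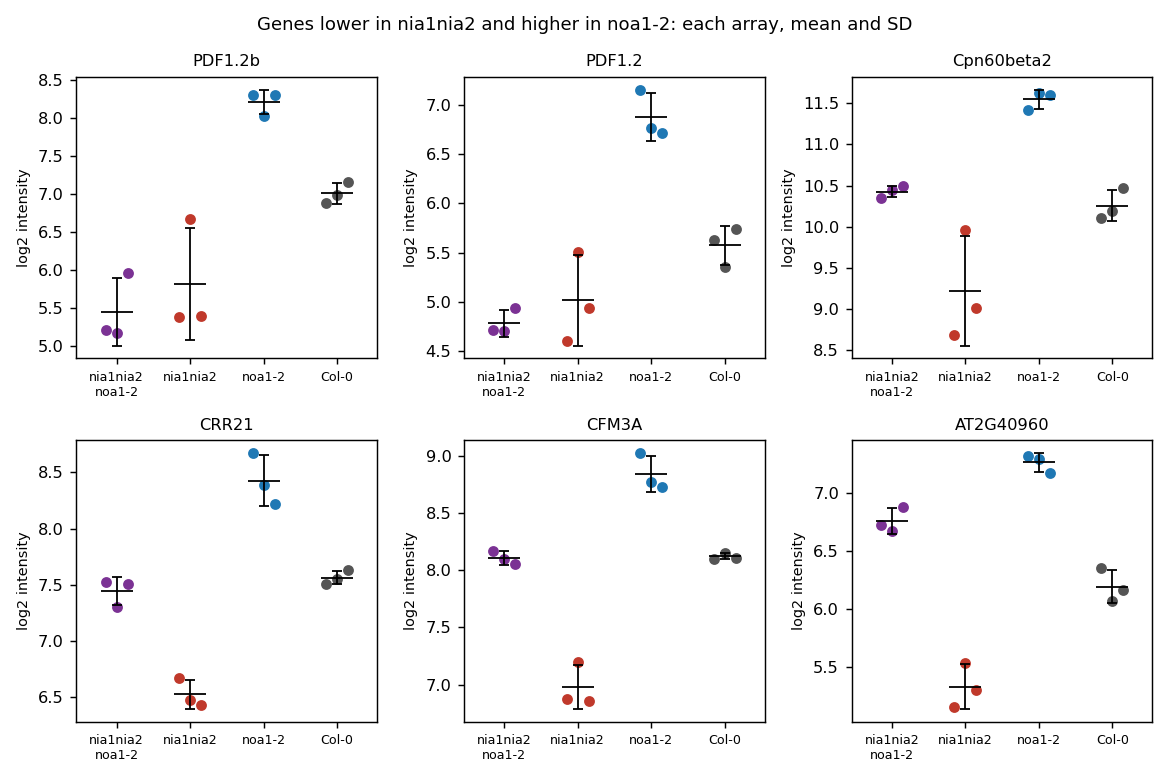
Log2 intensity of 6 noa1-2-high genes on each array (points), with the mean and SD of 3 arrays, for nia1nia2noa1-2, nia1nia2, noa1-2 and Col-0. PDF1.2b and PDF1.2 are low in nia1nia2noa1-2, Cpn60beta2, CRR21 and CFM3A lie close to Col-0 there, and AT2G40960 lies between Col-0 and noa1-2.

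None of 2 genes for plastid protein folding and 2 for plastid RNA processing passed the test in nia1nia2noa1-2, and their means there lay within 0.2 of Col-0. Among all 69 noa1-2-high genes 64 did not pass, so this is not particular to them. Cpn60beta2 (AT3G13470), a beta subunit of the plastid chaperonin, read 10.35, 10.44 and 10.49 in nia1nia2noa1-2, 8.68, 9.96 and 9.01 in nia1nia2, 11.42, 11.63 and 11.60 in noa1-2 and 10.11, 10.19 and 10.47 in Col-0. It differed by 0.17 ± 0.24 in nia1nia2noa1-2 (adjusted p = 0.657), with groups that overlapped. Cpn60beta4, another subunit, differed by -0.07 ± 0.13 (adjusted p = 0.744), with -0.66 in nia1nia2 and 0.70 in noa1-2.

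CRR21 (AT5G55740), a pentatricopeptide repeat protein that edits a plastid transcript of the NDH complex, read 7.52, 7.30 and 7.51 in nia1nia2noa1-2, 6.67, 6.47 and 6.43 in nia1nia2, 8.67, 8.39 and 8.22 in noa1-2 and 7.51, 7.55 and 7.63 in Col-0. CFM3A (AT3G23070), a splicing factor of plastid introns, read 8.17, 8.10 and 8.05 in nia1nia2noa1-2, 6.88, 7.20 and 6.86 in nia1nia2, 9.02, 8.77 and 8.73 in noa1-2 and 8.10, 8.15 and 8.11 in Col-0. The nia1nia2noa1-2 arrays of both genes overlapped or lay within 0.25 of the Col-0 arrays, while nia1nia2 and noa1-2 lay clear of them on either side. Their differences in nia1nia2noa1-2 were -0.12 ± 0.13 (CRR21, adjusted p = 0.547) and -0.01 ± 0.12 (CFM3A, adjusted p = 0.954).

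CYTC6A, a cytochrome of the thylakoid lumen, differed by -0.44 ± 0.19 in nia1nia2noa1-2 (adjusted p = 0.112). TRZ4, which trims the ends of tRNA precursors, differed by -0.17 ± 0.18 (adjusted p = 0.533) and AUR2, an Aurora kinase of dividing cells, by 0.03 ± 0.22 (adjusted p = 0.941). None of the 10 genes tested on the list of nuclear photosynthesis genes and none of the 6 on the list of mitochondrial stress genes was a member. In all, 4 of 20 gene lists held members, 9 genes in sum, and the 16 lists with no member had 52 genes tested of 390 listed. Members were only 129 of the 7005 nuclear probe sets, so nothing is read from the lack of members in lists this short.

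The 4 noa1-2-high genes called lower in nia1nia2noa1-2 were PDF1.2b, PDF1.2, AT5G62360 and AT1G30820, and the 1 called higher was AT2G40960. AT5G62360 read 6.90, 7.27 and 7.25 in nia1nia2noa1-2, 5.77, 7.61 and 6.0 in nia1nia2, 10.01, 9.97 and 9.89 in noa1-2 and 8.85, 9.13 and 9.08 in Col-0, and its difference of -1.88 ± 0.34 in nia1nia2noa1-2 (adjusted p = 0.0019) was the largest of the group. AT1G30820 read 7.27, 7.38 and 7.44 in nia1nia2noa1-2, 6.61, 7.55 and 6.72 in nia1nia2, 8.66, 8.77 and 8.54 in noa1-2 and 8.02, 8.26 and 8.14 in Col-0, with a difference of -0.78 ± 0.20 (adjusted p = 0.0132) whose call was lost without Col-0 replicate 2 (-0.72) or nia1nia2noa1-2 replicate 1 (-0.73). In both genes the nia1nia2 replicate 3 array was higher than every nia1nia2noa1-2 array, and the other 2 nia1nia2 arrays were lower.

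AT2G40960 read 6.72, 6.67 and 6.88 in nia1nia2noa1-2, 5.16, 5.54 and 5.30 in nia1nia2, 7.32, 7.29 and 7.17 in noa1-2 and 6.35, 6.07 and 6.16 in Col-0. The 4 genotypes did not overlap, and the difference of 0.56 ± 0.12 in nia1nia2noa1-2 passed (adjusted p = 0.00678). AT3G07350 was the other of the 2 noa1-2-high genes in which the nia1nia2noa1-2 mean lay nearest to that of noa1-2, with a difference of 0.46 ± 0.23 (adjusted p = 0.173) that passed on the 6 arrays alone (adjusted p = 0.042).

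By the smaller of the 2 differences AT4G15690 had the largest opposite changes of the group, although the nia1nia2 and noa1-2 means lay further apart in AT5G62360, AT3G15450 and AT2G20670. It read 5.41, 5.48 and 5.45 in nia1nia2noa1-2, 4.19, 4.98 and 4.16 in nia1nia2, 7.25, 7.46 and 7.34 in noa1-2 and 6.53, 5.60 and 5.50 in Col-0. AT4G15690 was under 6 in every genotype but noa1-2, so only its noa1-2 level stands above the floor, and it differed by -0.43 ± 0.25 in nia1nia2noa1-2 (adjusted p = 0.248). Its neighbour AT4G15680, with no gene between them in the RefSeq order, was a member too, at -0.67 in nia1nia2 and 1.72 in noa1-2. AT4G15680 was under 6 in nia1nia2 (mean of 5.73), and whether the 2 probe sets share signal was not tested. The only other adjacent members were AT2G25870 and AUR2. On chromosomes 1 to 5 lay 11, 11, 19, 8 and 20 noa1-2-high genes (15.9%, 15.9%, 27.5%, 11.6% and 29.0%). The nia1nia2-high genes there numbered 14, 7, 11, 13 and 15 (23.3%, 11.7%, 18.3%, 21.7% and 25.0%). Of the nuclear probe sets tested these chromosomes held 26.2%, 14.7%, 20.4%, 14.5% and 24.2%, and the differences were not tested.

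In several noa1-2-high genes the low nia1nia2 mean rested on 2 of the 3 arrays. AT2G20670 read 8.41, 8.23 and 8.16 in nia1nia2noa1-2, 4.83, 8.29 and 5.58 in nia1nia2, 9.51, 9.75 and 9.06 in noa1-2 and 8.53, 8.21 and 8.69 in Col-0, so nia1nia2 replicate 3 lay within Col-0. AT1G13650 read 6.81, 5.93 and 6.93 in nia1nia2noa1-2, 5.25, 7.58 and 4.98 in nia1nia2, 7.49, 7.71 and 8.26 in noa1-2 and 7.27, 6.86 and 7.03 in Col-0, with replicate 3 of nia1nia2 above Col-0. AT3G15450 read 10.16, 10.28 and 10.20 in nia1nia2noa1-2, 7.22, 10.85 and 7.80 in nia1nia2, 12.18, 12.22 and 11.78 in noa1-2 and 11.71, 11.33 and 11.03 in Col-0, and its nia1nia2 mean, at -2.73, was the lowest relative to Col-0. Its difference in nia1nia2noa1-2 was -1.14 ± 0.64 (adjusted p = 0.224) in the fit over all arrays, and it passed on the 6 arrays alone (adjusted p = 0.000383). AT1G07050, at -1.13 ± 0.42, did not pass over all arrays (adjusted p = 0.0707) and passed on the 6 arrays (adjusted p = 0.00435), with the replicate block, and without nia1nia2 replicate 2 or 4.

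The genes AT3G51870, AT4G21870 and AT2G44640, also among the largest opposite changes, differed by -0.04 ± 0.21, 0.18 ± 0.28 and 0.17 ± 0.15 in nia1nia2noa1-2 (adjusted p of 0.908, 0.682 and 0.475). AT5G64150, AT1G56050 and AT1G17850 had nia1nia2noa1-2 means within 0.05 of Col-0. The nia1nia2 means of these 6 genes lay 0.63 to 1.24 below Col-0 and their noa1-2 means 0.57 to 1.04 above it.

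The place of nia1nia2noa1-2 among the other genotypes is given as a description. Its mean lay nearest to nia1nia2 in 38, to Col-0 in 22 and to noa1-2 in 0 of the nia1nia2-high genes, and nearest to nia1nia2 in 9, to Col-0 in 58 and to noa1-2 in 2 of the noa1-2-high genes. It lay between the nia1nia2 and noa1-2 means in 55 of 60 and in 67 of 69, and beyond nia1nia2 in the other 5 and 2, with 0 beyond noa1-2. Those 5 were IAGLU, SAG29, AT4G14090, AT5G19970 and AT5MAT, and those 2 were PDF1.2 and PDF1.2b. On a scale with noa1-2 at 0 and nia1nia2 at 1, the median place of nia1nia2noa1-2 was 0.78 among nia1nia2-high genes, where that of Col-0 was 0.36, and 0.52 among noa1-2-high genes, where that of Col-0 was 0.46. Without Col-0 replicate 1 the nia1nia2-high genes nearest to Col-0 numbered 35 rather than 22, more than the 28 nearest to nia1nia2, and without noa1-2 replicate 3 the noa1-2-high genes nearest to nia1nia2 numbered 14 rather than 9. Those nearest to noa1-2 numbered 4 rather than 2 without nia1nia2 replicate 3 and 0 without Col-0 replicate 2. With size minimums of 0.4, 0.75 and 1, more nia1nia2-high genes lay nearest to Col-0 (52, 8 and 5) than to nia1nia2 (51, 6 and 1).

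Set against nia1nia2, nia1nia2noa1-2 was lower in 55 of the 60 nia1nia2-high genes (median difference -0.44) and higher in 67 of the 69 noa1-2-high genes (median 0.71). Set against noa1-2 it was higher in all 60 (median 1.53) and lower in all 69 (median -0.77). The nia1nia2noa1-2 difference from Col-0 exceeded the sum of the nia1nia2 and noa1-2 differences by a median of 0.30 in the nia1nia2-high genes and of 0.03 in the noa1-2-high genes. The nia1nia2 and noa1-2 means are extreme by selection, so these differences carry no test.

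The medians of single arrays showed how the replicates lay. Over the nia1nia2-high genes the median difference from the Col-0 mean was 0.80, 0.78 and 0.60 in the nia1nia2noa1-2 arrays, 1.48, 0.92 and 1.27 in nia1nia2 (replicates 2, 3 and 4), -0.62, -0.74 and -0.72 in noa1-2 and -0.10, 0.04 and 0.11 in Col-0. Over the noa1-2-high genes it was -0.17, -0.11 and -0.04 in nia1nia2noa1-2, -0.97, -0.54 and -0.81 in nia1nia2, 0.70, 0.66 and 0.57 in noa1-2 and -0.02, -0.01 and 0.02 in Col-0. Replicate 3 of nia1nia2 was the lowest of its genotype in 43 of the 60 nia1nia2-high genes (32.1% of all probe sets) and the highest in 51 of the 69 noa1-2-high genes (34.1% of all), so it was the mildest nia1nia2 array in both. Col-0 replicate 1 was the lowest Col-0 array in 37 of the 60 (39.2% of all).

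**Figure D5:**
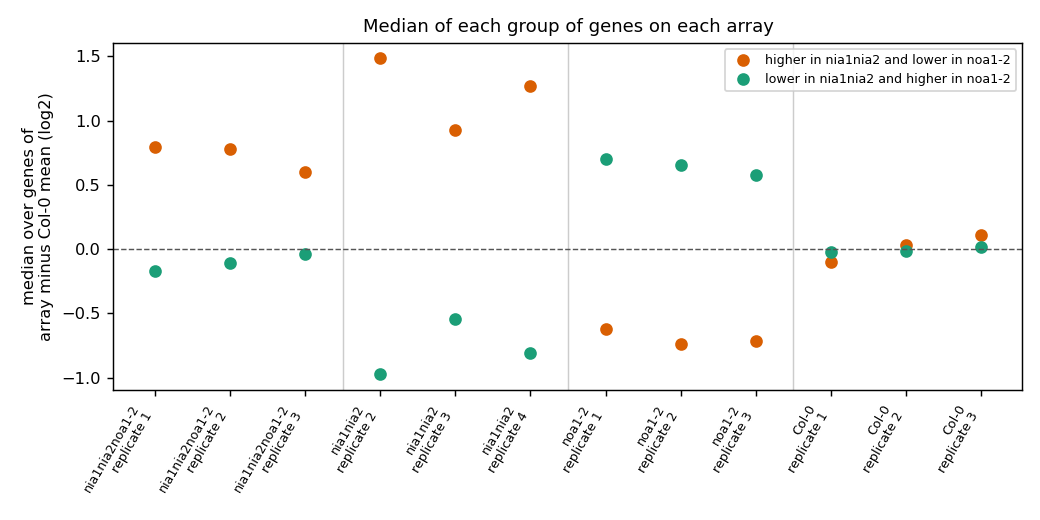
Median over the 60 nia1nia2-high genes (orange) and the 69 noa1-2-high genes (green) of each array's log2 intensity minus the Col-0 mean, for the 12 arrays grouped by genotype. The nia1nia2noa1-2 arrays sit at 0.60 to 0.80 for the first group and at -0.17 to -0.04 for the second.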

How the data were processed

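The authors background corrected and normalized the ATH1 arrays by RMA, and deposited linear intensities, of which the log2 was taken here. The methods name a custom gene-level chip definition file, whereas the table used here is keyed by Affymetrix probe sets. Which definition gave these values is unknown. Of 22810 probe sets 13513 were listed with 1 gene, and 13436 of these matched the RefSeq table of TAIR10.1, used for symbols and chromosomes only. Probe sets with a mean of at least 6 in at least 1 genotype (7083, of which 7005 nuclear) entered 1 fit in limma 3.58.1 (R 4.3.3) over 12 arrays with 8 residual degrees of freedom, adjusted by Benjamini-Hochberg, threshold 0.05. The ± values are standard errors of that fit. Figures used Python 3.11.15 and matplotlib 3.10.9. The fit was tested on simulated data with 1 SD per probe set in all genotypes, unlike the real arrays, of which those of nia1nia2 spread more. There it called 52.8% of 1.5-fold, 91.2% of 2-fold and 98.8% of 4-fold changes, and 5.86% of calls were false. A gene that did not pass may thus still differ by 1.5-fold. The number of arrays limits the precision.

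The members, the 20 gene lists and the tests were chosen with earlier results of these data known. Named were, in each direction, the 12 largest by the smaller of both differences, the 6 largest calls each way in nia1nia2noa1-2, the 4 nearest to Col-0 there among the 40 largest, list genes, and genes at the size minimum. Other genes, and the role groups, were named after their values were seen. Alternatives were other floors, sizes, scalings and tests, a replicate block, and each array left out. Promoter motifs were not analysed here.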

Additional observations from a re-analysis of the deposited data

How the results depend on the processing

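No median and no named difference past the threshold changed sign, 7 named genes near 0 did, and of 42 named genes 29 kept their call under all alternatives run. The larger share of nia1nia2-high genes nearest to nia1nia2 did not hold at the other size minimums or without Col-0 replicate 1. Below, values for the nia1nia2-high and noa1-2-high genes are named A and B. A size minimum of 0.4 gave 104 A and 137 B members, of which 71 A and 105 B did not overlap, nia1nia2noa1-2 was called lower in 11 B, its mean was nearest to nia1nia2 in 20 B, to Col-0 in 52 A and 113 B and to noa1-2 in 1 A and 4 B, and the A median was 0.53. A minimum of 0.75 gave 14 A and 15 B members (10 and 9 without overlap), 8 A called higher, 2 B called lower, 6 A and 4 B nearest to nia1nia2, 8 A and 10 B nearest to Col-0, 1 B nearest to noa1-2 and a B median of -0.21. A minimum of 1 gave 6 A and 4 B members (5 and 4 without overlap), 2 A and 0 B called higher, 1 B called lower, 1 A and 1 B nearest to nia1nia2, 5 A and 3 B nearest to Col-0, 0 B nearest to noa1-2 and medians of 0.54 (A) and -0.24 (B). The size minimum leaves the shares of all probe sets called at 10.6% higher and 11.3% lower, and those without overlap at 2.78% and 4.31%. With the floor of 6 in each of nia1nia2, noa1-2 and Col-0 there were 55 B members. Of these 0 were called higher, 2 lower, and 1 was nearest to noa1-2. Of the 6135 probe sets then tested 600 were called higher and 672 lower. Over all probe sets tested the median difference of nia1nia2 from Col-0 was -0.10, so scaling moves the membership. Median centring gave 52 A and 72 B members, 48 and 57 of them among the 60 and 69. Of the 72 B 7 were called lower, against 843 of 7084 probe sets. None of them was nearest to noa1-2, and the B median was -0.17. Quantile normalization, applied again, gave 58 A and 63 B members, 53 and 59 of them among the 60 and 69. Limma on 6 arrays called 3 B higher and 13 lower, against 17.4% and 18.6% of all probe sets. The methods' t-test with adjustment called 21 A and 2 B higher, against 663 of 7083 probe sets. Without adjustment it called 2 of 69 B higher and 10 lower, against 1315 and 1459 of 7083. The causes were not tested.

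The replicate numbers were not taken to pair nia1nia2noa1-2 with Col-0, whose same-numbered arrays' deviations correlated at -0.014, 0.07 and -0.099. Those of nia1nia2noa1-2 and noa1-2 correlated at 0.11, 0.209 and 0.09, and across all genotype pairs the values ran between -0.11 and 0.282. With the replicate block 38 A were called higher (63.3%, against 16.1% of all probe sets) and 9 B lower (13.0%, against 16.9%). Replicate number 4 occurs in nia1nia2 alone, so the block also takes that array out of the estimate of the spread. Leaving that array out gave similar shares of all probe sets, 16.3% higher and 17.0% lower. The block counts therefore do not show an effect of pairing by itself.

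Leaving out each array in turn gave 53 to 71 A and 57 to 88 B members, 42 to 59 A and 48 to 79 B without overlap, 20 to 39 A and 1 to 2 B called higher, 0 to 1 A and 2 to 8 B called lower, 28 to 44 A and 6 to 14 B nearest to nia1nia2, 17 to 35 A and 44 to 76 B nearest to Col-0, 0 to 1 A and 0 to 4 B nearest to noa1-2, and medians of 0.583 to 0.833 (A) and -0.172 to -0.022 (B). In the same fits 6.19% to 16.3% of all probe sets were called higher and 5.80% to 17.0% lower. The members called higher were 31.7% to 66.1% of A, and those called lower 2.90% to 11.1% of B. The counts without overlap use the contrasts that chose the genes, so nothing is read from them. With 3 arrays a genotype, and 15 A and 14 B genes under 6 in at least 1 genotype, dim genes are the least certain.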
